A study of Mus musculus with 3 samples.

Results

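The Ms4a family was described in 8 genes that lie in the same region of mouse chromosome 19: Ms4a7, Ms4a4a, Ms4a4c, Ms4a4b, Ms4a6c, Ms4a6b, Ms4a6d and Ms4a2. They were chosen by symbol, and all 8 were found among the 27998 genes of a single-cell RNA count matrix. The matrix holds Cd11b-sorted cells of whole mouse brain without cerebellum from 5-month-old female C57BL6J mice. The study describes a naive group (Ctrl, 1 animal), a group fed PLX5622 in the diet at 1200 mg/kg for 14 days (D0, 2 animals pooled) and a group moved to control diet for 2 days after those 14 days (D2, 1 animal). PLX5622 blocks Csf1r, a receptor on which microglia depend, and was used to deplete them. Cd11b is a surface integrin of microglia and other myeloid cells and of NK cells, so the sort can hold all of these. Each cell barcode ends in a suffix from 1 to 3, and no label used here ties a suffix to Ctrl, D0 or D2. Values are therefore given per suffix, side by side, with no comparison of the 3 groups, no replicates and no p-value.

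Ms4a genes encode small proteins that pass through the membrane several times and sit beside immune receptors, where they shape signalling and receptor traffic. Ms4a1 is the B cell antigen CD20, and Ms4a2 is the beta chain of the high-affinity IgE receptor of basophils and mast cells. Ms4a4a and the Ms4a6 genes are expressed by macrophages and monocytes, Ms4a7 is known in the brain as a gene of border-associated macrophages, and Ms4a4b is known from T cells and NK cells. Border-associated macrophages live in the meninges, perivascular spaces and choroid plexus rather than in the parenchyma.

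On the genome (GRCm38, the build named mm10 in the submitters' processing notes) the 8 genes span 302.7 kb, from base 11321039 to base 11623719 of chromosome 19, and all are annotated as protein-coding. Ms4a7 (ENSMUSG00000024672, 11321039 to 11336146), Ms4a6d (ENSMUSG00000024679, 11586604 to 11604849) and Ms4a2 (ENSMUSG00000024680, 11615523 to 11623719) lie on the minus strand. The other 5 lie on the plus strand: Ms4a4a (ENSMUSG00000101389, 11375523 to 11392790), Ms4a4c (ENSMUSG00000024675, 11404770 to 11427246), Ms4a4b (ENSMUSG00000056290, 11443553 to 11467055), Ms4a6c (ENSMUSG00000079419, 11469366 to 11482192) and Ms4a6b (ENSMUSG00000024677, 11516512 to 11531256).

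Promoter sequence is shown for 6 chosen members, in part because neighbours in the cluster resemble each other. Of the 8 members, 7 had an entry in the RefSeq promoter table (GRCm38.p6). Ms4a6d had none, and the Ms4a4a sequence is not shown. Ms4a7 had 2 entries, and the one nearest a protein-coding start in GENCODE M21 was taken. The windows of Ms4a7, Ms4a4c and Ms4a6b lie inside the gene spans given above, so the start used for them is an internal one. The 250 bases before the start were searched on both strands for 5 short motifs: a PU box (GAGGAA), an ISRE-like element (GAAANNGAA), a GATA element (AGATAA), a T-box element (GGTGTGA) and a RUNX element (TGTGGT). Capitals mark every match, and the sequence runs 5′ to 3′ on the gene's strand up to the first base that GENCODE M21 puts in an exon of that gene. The first pair, chr19:11469118-11469365 and chr19:11518309-11518452 (both plus strand), belongs to Ms4a6c and Ms4a6b.
Ms4a6c: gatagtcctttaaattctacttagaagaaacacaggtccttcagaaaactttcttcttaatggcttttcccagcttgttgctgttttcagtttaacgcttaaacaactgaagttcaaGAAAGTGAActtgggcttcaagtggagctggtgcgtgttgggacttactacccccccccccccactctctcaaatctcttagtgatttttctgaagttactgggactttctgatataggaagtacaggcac
Ms4a6b: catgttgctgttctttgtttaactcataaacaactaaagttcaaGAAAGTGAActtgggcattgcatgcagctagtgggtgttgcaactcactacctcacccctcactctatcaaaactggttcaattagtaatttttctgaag
Both hold the same ISRE-like match, GAAAGTGAA, 133 bases before the start of Ms4a6c and 206 bases before that of Ms4a6b. Over the full windows, the 2 promoters align locally over 182 columns with 82.4% identity.

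The second pair, chr19:11407411-11407660 and chr19:11443308-11443552 (both plus strand), belongs to Ms4a4c and Ms4a4b, which were highest in different classes of cells, as shown further on.
Ms4a4c: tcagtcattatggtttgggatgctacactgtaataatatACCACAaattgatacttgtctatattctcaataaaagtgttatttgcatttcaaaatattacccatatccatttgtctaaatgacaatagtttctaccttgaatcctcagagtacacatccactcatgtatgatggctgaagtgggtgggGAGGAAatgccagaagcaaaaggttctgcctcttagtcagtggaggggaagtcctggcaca
Ms4a4b: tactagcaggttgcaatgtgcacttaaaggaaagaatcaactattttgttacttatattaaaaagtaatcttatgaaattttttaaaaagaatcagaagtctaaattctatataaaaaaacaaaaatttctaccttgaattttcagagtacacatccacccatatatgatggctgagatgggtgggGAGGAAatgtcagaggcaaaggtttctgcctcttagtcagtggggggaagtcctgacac
Both hold a PU box, 61 and 64 bases before the start. Ms4a4c alone of the pair has a RUNX match, 211 bases before the start. They align locally over 128 columns with 89.1% identity. No other pair of the 7 promoters had a local alignment of over 30 columns.

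The last 2 sequences, both on the minus strand, belong to Ms4a7 (chr19:11334696-11334945) and Ms4a2 (chr19:11623720-11623969), the members with the narrowest myeloid pattern and the basophil pattern.
Ms4a7: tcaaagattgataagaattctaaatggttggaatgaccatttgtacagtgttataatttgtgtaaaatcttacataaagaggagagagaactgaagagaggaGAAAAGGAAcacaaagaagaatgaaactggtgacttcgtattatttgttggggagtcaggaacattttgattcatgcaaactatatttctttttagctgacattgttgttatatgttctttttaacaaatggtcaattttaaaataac
Ms4a2: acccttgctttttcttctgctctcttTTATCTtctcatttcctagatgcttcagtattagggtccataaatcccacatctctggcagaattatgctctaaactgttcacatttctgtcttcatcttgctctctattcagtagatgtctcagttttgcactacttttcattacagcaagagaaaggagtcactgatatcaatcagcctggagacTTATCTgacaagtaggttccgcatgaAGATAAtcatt
Ms4a7 has 1 ISRE-like match, 148 bases before the start. Ms4a2 has 3 GATA matches, at 224, 37 and 11 bases. Among the 250-base windows of all 32851 promoters in the table, 23.3% hold the PU box, 7.1% the ISRE-like element, 10.0% the GATA element, 14.0% the RUNX element and 3.3% the T-box element, which none of the 7 members had. A match describes letters only and shows no binding.

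The reads come from the 3′ end of transcripts, so sequence shared there could move counts between paralogs. In the last 500 bases of the protein-coding transcripts, stretches of 98 bases were compared with all other genes. Only Ms4a4c shared any, 23 of 1070 stretches (2.15%), with a transcript of Ms4a4b. The other 7 members shared 0.

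The matrix held 2149 barcodes and 13264401 unique molecular identifiers (UMIs, each standing for a captured RNA molecule). Suffixes 1, 2 and 3 had 1263, 599 and 287 barcodes and median depths of 3660, 6215 and 8143 UMIs per kept cell, and no barcode sequence occurred under 2 suffixes. After filtering, 2137 cells fell into 15 clusters, found without Ms4a and Tmem176 genes and named from marker lists that hold none of them. The 9 classes named were microglia-like (1154 cells), border-associated-macrophage-like (95, here border-macrophage-like), classical monocyte-like (206), non-classical monocyte-like (74), dendritic-like (226), migratory dendritic-like (59), NK-like (125), neutrophil-like (81) and basophil-or-mast-cell-like (7). A cluster of 77 cells led by proliferation genes such as Birc5 and Cdca3 stayed unnamed, as did 33 other cells. The suffixes differed in makeup: 1087 of the microglia-like and 90 of the border-macrophage-like cells carried suffix 1, while most monocyte-like, dendritic-like and NK-like cells carried suffix 2 or 3. The cycling cluster was not the same kind of cell in both suffixes. In suffix 2 its 21 cells had 312 CPM (counts per 1000000 UMIs) of microglia markers and 2406 CPM of classical monocyte markers, and in suffix 3 its 54 cells had 4726 and 1201 CPM. It also held 3282 and 979 CPM of dendritic and 2992 and 3357 CPM of neutrophil markers in suffixes 2 and 3. All 3 samples are labelled as microglia, while microglia-like cells were 86.2% of suffix 1, 11% of suffix 2 and 0.704% of suffix 3. Levels below are CPM of UMIs summed over a class, with exact Poisson 95% intervals, and are ordered only where a class had at least 20 cells in a suffix. Shares of cells are given after each cell was thinned to 2000 UMIs, with exact Clopper-Pearson intervals. A limit given beside a count of 0 ("allows up to") is 3 counts of the total, which is smaller than the upper end of the exact interval. Intervals and limits cover counting error only, not the spread between cells or animals.

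**Figure D1:**
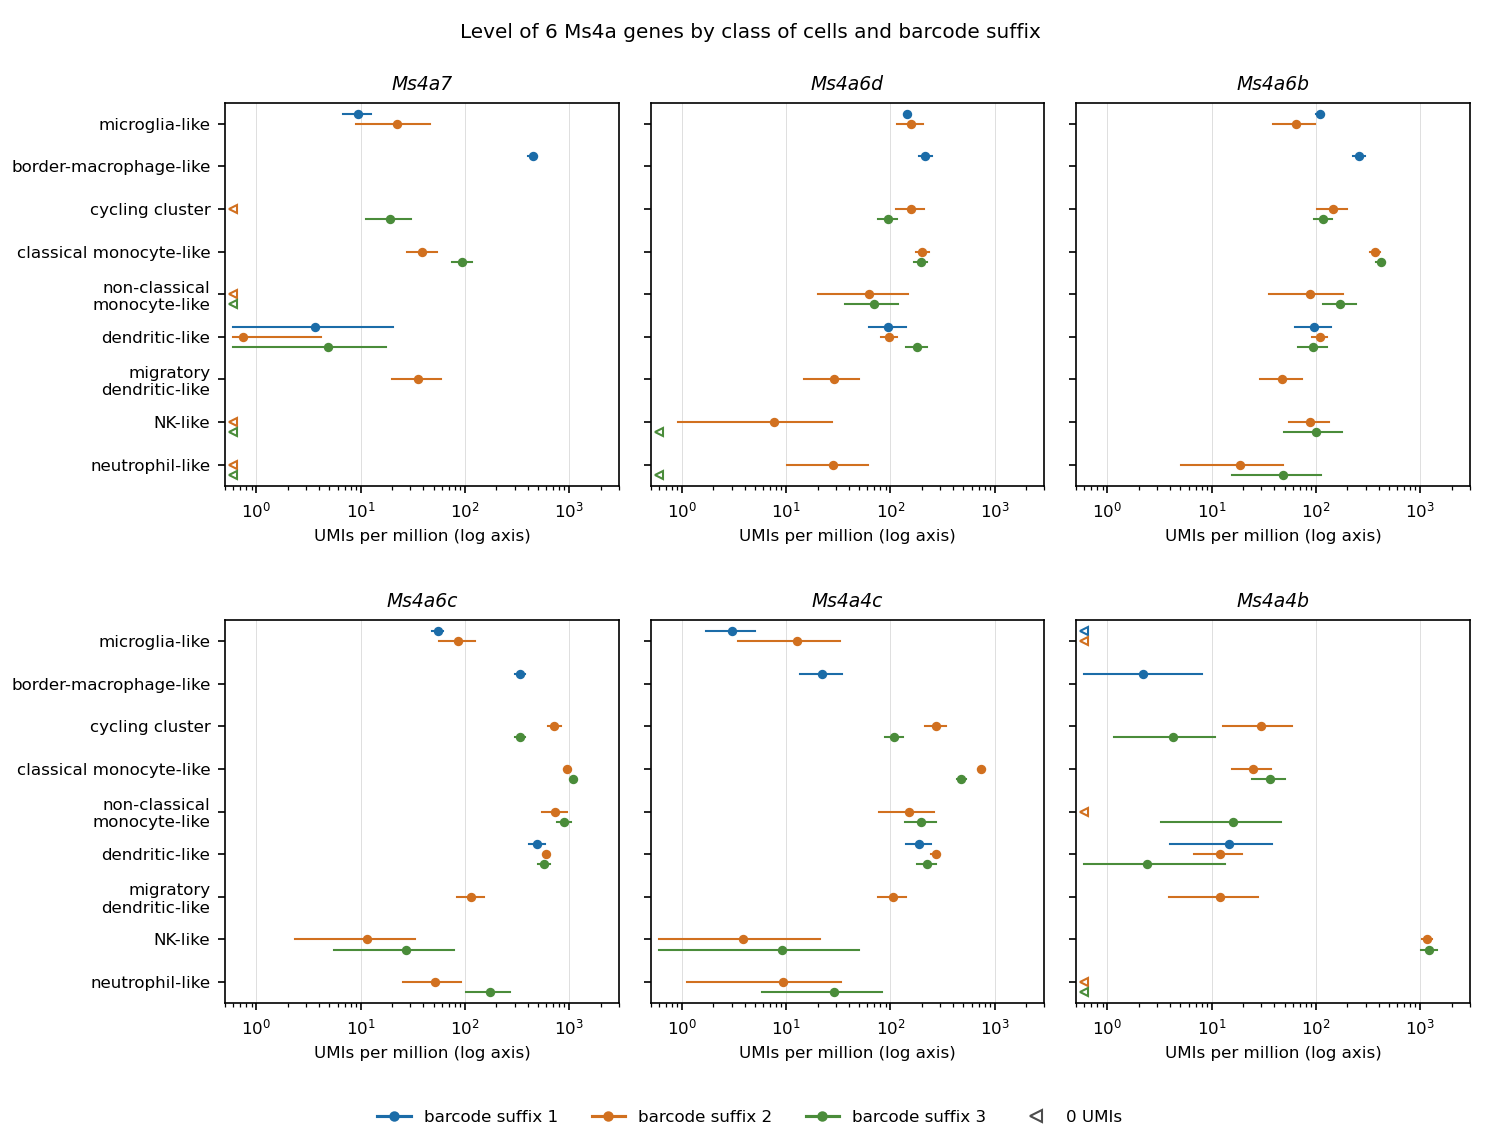
Level of 6 Ms4a genes (CPM, log axis) in each class of cells with at least 20 cells in a barcode suffix; points are summed counts, bars 95% Poisson intervals drawn down to 0.6 at the lowest, and open triangles 0 UMIs. Ms4a7 is highest in border-macrophage-like cells at 446 CPM and Ms4a4b in NK-like cells at 1166 and 1212 CPM, while Ms4a6c and Ms4a4c are highest in classical monocyte-like cells of suffixes 2 and 3.

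Ms4a7 was the member with the sharpest border macrophage pattern. In suffix 1 it stood at 446 CPM (403 to 491, 402 UMIs) in 90 border-macrophage-like cells, 9.33 CPM (6.83 to 12.4, 46 UMIs) in 1087 microglia-like cells and 3.67 CPM (1 UMI) in 29 dendritic-like cells. The 3 border-macrophage-like cells of suffix 3 had 393 CPM (196 to 704, 11 UMIs), and the 2 of suffix 2 had no UMI of Ms4a7 and none of Tyrobp, an adaptor of myeloid cells. Of all 627 Ms4a7 UMIs, 65.9% came from border-macrophage-like cells, which were 4.45% of cells. After thinning, 45 of 90 border-macrophage-like cells of suffix 1 (50%, 39.3 to 60.7) and 7 of 1019 microglia-like cells (0.687%, 0.277 to 1.41) had a Ms4a7 UMI. NK-like and neutrophil-like cells, taken as classes that lack the gene, had 0 of 67 and 0 of 40 in suffix 2, which allows up to 4.48% and 7.5%, at median depths of 3092 and 3692 UMIs against 8413 and 3393 UMIs in the border-macrophage-like and microglia-like cells of suffix 1. The neutrophil-like cells of suffix 2 held 3365 CPM of microglia markers. The level in border-macrophage-like cells was 47.8-fold that in microglia-like cells, a log2 ratio of 5.58 (5.14 to 6.05).

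**Figure D2:**
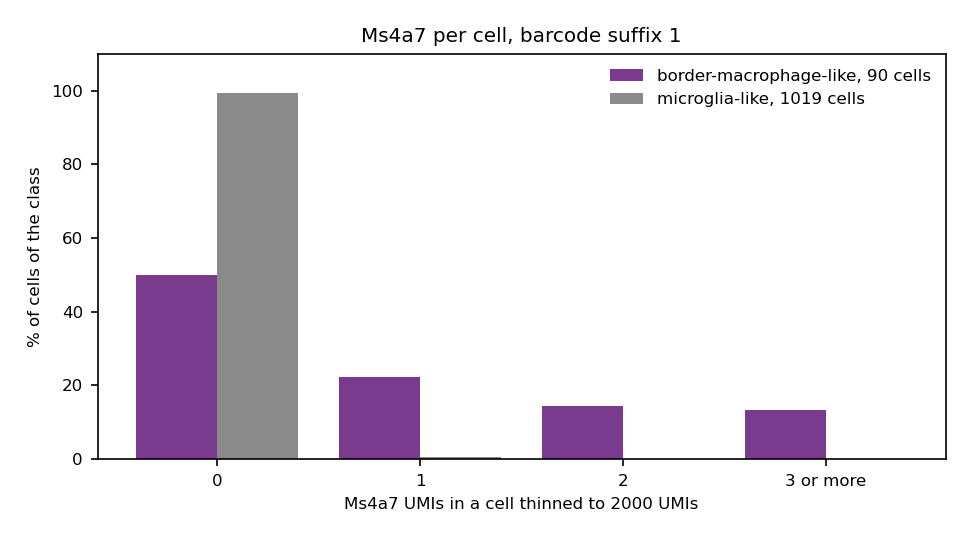
Share of cells (%) with 0, 1, 2 or at least 3 Ms4a7 UMIs after thinning each cell of suffix 1 to 2000 UMIs, for 90 border-macrophage-like and 1019 microglia-like cells. Among border-macrophage-like cells 13.3% had at least 3 UMIs, and among microglia-like cells 0 had.

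The Ms4a7 counts of microglia-like cells lay in few cells. Without thinning, 14 of the 1087 cells carried all 46 UMIs, and 1 cell carried 20. Leaving out that cell, a step added after the data had been seen, moved the log2 ratio to 6.34 (5.77 to 6.97). The 14 cells had a median depth of 12822.5 UMIs against 3370 UMIs in the other 1073, and 8 of the 14 (57.1%) also had a UMI of 6 border macrophage markers (Mrc1, Pf4, Cbr2, Cd163, Folr2, Dab2) against 7.27% of the rest. The 6 markers summed to 103 CPM in the 14 cells and 27.2 CPM in the rest. In the 1001 microglia-like cells without any UMI of these markers Ms4a7 stood at 3.68 CPM (16 UMIs, 11 of them in 1 cell), and the log2 ratio was 6.92 (6.20 to 7.74). Over the whole border macrophage list, microglia-like cells of suffix 1 had UMIs of 11 of 12 markers at 202 CPM, and border-macrophage-like cells 12 of 12 at 3940 CPM. In turn the border-macrophage-like cells had all 11 microglia markers at 18394 CPM, against 36777 CPM in microglia-like cells. The part of shared or mixed cells in these levels was not tested.

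Among border-macrophage-like cells of suffix 1, the 75 with a Ms4a7 UMI had 2984 CPM of the same 6 markers and a median depth of 9132 UMIs. The 15 without had 693 CPM and 6181 UMIs, so cells without Ms4a7 were lower in these markers as well as shallower.

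Outside the border macrophages, Ms4a7 was detected in a minority of monocyte-lineage cells. Classical monocyte-like cells had 39.1 CPM (27.7 to 53.7) in suffix 2 and 93.3 CPM (74.3 to 116) in suffix 3, where 38 of 83 UMIs came from 1 cell. After thinning, 5.83% (2.38 to 11.7) and 5.33% (1.47 to 13.1) of these cells had a UMI, so the intervals of the shares overlapped while those of the levels did not. In suffix 3 the 16 monocyte-like cells with Ms4a7 had 319 CPM of the 6 border macrophage markers against 74.0 CPM in the other 59, and in suffix 2 the order was opposite, 47.6 against 103 CPM. Migratory dendritic-like cells, mature dendritic cells marked by Ccr7, had 35.7 CPM (20 to 58.9) in suffix 2 with none of the 6 markers detected. These cells held 30312 CPM of the NK list against 12551 CPM of their own, of which Ccl5, a chemokine gene, made up 29917 CPM. Its part in the Ms4a7 level was not tested. The cycling cluster had 0 UMIs in suffix 2, which allows up to 11.1 CPM, and 19.1 CPM (11.3 to 30.1) in suffix 3, where the 4 cells with Ms4a7 had 1501 CPM of the border macrophage markers and the other 50 had 149 CPM. Dendritic-like cells stood at 0.748 CPM in suffix 2 and 4.82 CPM in suffix 3, with 1 and 2 UMIs. Non-classical monocyte-like, NK-like and neutrophil-like cells had 0 UMIs in both suffixes. In suffix 2 this allows up to 37.7, 11.5 and 14.0 CPM in that order, and in suffix 3 up to 15.9, 27.1 and 28.7 CPM. The limit for non-classical monocyte-like cells of suffix 2 is thus close to the 39.1 CPM of classical monocyte-like cells.

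Ms4a4a, whose product is known to associate with Trem2 in macrophages, was close to the limit of detection with 19 UMIs. Border-macrophage-like cells of suffix 1 held 9 UMIs in 9 cells (9.98 CPM, 4.56 to 18.9), classical monocyte-like cells 4 UMIs in suffix 2 (4.12 CPM) and 5 in suffix 3 (5.62 CPM), and non-classical monocyte-like cells 1. Microglia-like cells of suffix 1 had 0 UMIs, which allows up to 0.608 CPM, and dendritic-like cells had 0 in each suffix. Trem2 itself went the other way in suffix 1: its level was 2857 CPM in microglia-like and 1848 CPM in border-macrophage-like cells, a log2 ratio of -0.63 (-0.70 to -0.56). In suffix 2 Ms4a4a gave no order, since the 0 UMIs of microglia-like cells allow up to 9.59 CPM. Trem2 there had 203 CPM in classical monocyte-like and 3499 CPM in microglia-like cells. Tyrobp, the adaptor of Trem2, differed less, at 3358 and 3731 CPM in border-macrophage-like and microglia-like cells of suffix 1.

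Ms4a6c was a gene of monocyte-like and dendritic-like cells, low in microglia. In suffix 1 its level was 492 CPM (412 to 583) in dendritic-like, 336 CPM (299 to 376) in border-macrophage-like and 54.6 CPM (48.2 to 61.5) in microglia-like cells, with no overlap of intervals. In suffix 2 classical monocyte-like cells had 959 CPM (898 to 1023), non-classical monocyte-like cells 729 CPM (554 to 942), the cycling cluster 717 CPM and dendritic-like cells 600 CPM (559 to 643), each overlapping its neighbour in that order. Migratory dendritic-like cells followed far below at 114 CPM, then microglia-like at 86.3, neutrophil-like at 51.3 and NK-like cells at 11.5 CPM. In suffix 3 the order was classical monocyte-like with 1078 CPM (1011 to 1149), non-classical monocyte-like with 892 CPM, dendritic-like with 574 CPM, the cycling cluster with 338 CPM, neutrophil-like with 172 CPM and NK-like cells with 27.1 CPM, and only the first 2 overlapped. All 18 neutrophil UMIs of suffix 3 came from 1 cell. After thinning, 73.3% (64.5 to 81.0) and 92% (83.4 to 97.0) of classical monocyte-like cells of suffixes 2 and 3 had a Ms4a6c UMI. The share was 57.8% in border-macrophage-like and 9.22% (7.52 to 11.2) in microglia-like cells of suffix 1, and in NK-like cells 1.49% (0.0378 to 8.04) in suffix 2 and 6.45% in suffix 3. The microglia-like share in suffix 2, 6.78% (1.88 to 16.5), thus lay within the interval of the NK-like share.

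Ms4a6b followed classical monocytes and border macrophages but was spread more evenly. In suffix 1 it was 257 CPM (225 to 293) in border-macrophage-like, 109 CPM (100 to 119) in microglia-like and 95.5 CPM (62.4 to 140) in dendritic-like cells, the latter 2 overlapping. Classical monocyte-like cells had 370 CPM (333 to 411) in suffix 2 and 419 CPM (378 to 464) in suffix 3, above every other class of their suffix. The other classes of suffix 2 ran from 145 CPM in the cycling cluster through 109 CPM in dendritic-like, 88.0 in non-classical monocyte-like, 87.9 in NK-like, 63.9 in microglia-like and 47.6 in migratory dendritic-like to 18.7 CPM in neutrophil-like cells, and each overlapped the next. In suffix 3 non-classical monocyte-like cells had 170 CPM, the cycling cluster 118 CPM, NK-like 99.5 CPM, dendritic-like 94.0 CPM and neutrophil-like cells 47.8 CPM, again each overlapping the next. Ms4a6b was also found in NK-like cells: 19.4% (10.8 to 30.9) of them in suffix 2 and 19.4% (7.45 to 37.5) in suffix 3 after thinning, against 7.5% and 0% of neutrophil-like cells. The NK-like share lay close to the microglia-like one, 21.1% (18.6 to 23.7) in suffix 1 and 16.9% (8.44 to 29.0) in suffix 2.

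Of the 4 members with at least 50 UMIs there, Ms4a6d differed least between microglia-like and border-macrophage-like cells of suffix 1. It stood at 216 CPM (187 to 249) in border-macrophage-like, 144 CPM (133 to 155) in microglia-like and 95.5 CPM (62.4 to 140) in dendritic-like cells of suffix 1. With cells named one by one, Ms4a6b differed as little between microglia-like and border-macrophage-like cells, as given further on. In suffix 2 classical monocyte-like cells had 203 CPM (175 to 233), microglia-like cells 157 CPM (116 to 207), the cycling cluster 156 CPM, dendritic-like cells 96.5 CPM and non-classical monocyte-like cells 62.8 CPM, each overlapping the next. Migratory dendritic-like, neutrophil-like and NK-like cells were lowest, at 28.5, 28.0 and 7.64 CPM. In suffix 3 classical monocyte-like (195 CPM) and dendritic-like cells (181 CPM) overlapped, the cycling cluster had 94.3 CPM and non-classical monocyte-like cells 69.0 CPM, and NK-like and neutrophil-like cells had 0 UMIs, which allows up to 27.1 and 28.7 CPM. Microglia-like cells, 54% of all cells, held 43.5% of its 1758 UMIs, and after thinning 24.9% (22.3 to 27.7) of those in suffix 1 and 22% (12.3 to 34.7) in suffix 2 had a UMI, against 1.49% (0.0378 to 8.04) of NK-like cells in suffix 2.

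Ms4a4c was nearly absent from microglia and highest in classical monocytes. The 1087 microglia-like cells of suffix 1 had 15 UMIs in all, 3.04 CPM (1.70 to 5.02), border-macrophage-like cells 22.2 CPM (13.5 to 34.2, 20 UMIs) and dendritic-like cells 187 CPM (139 to 246). In suffix 2 classical monocyte-like cells stood at 745 CPM (692 to 801), dendritic-like cells at 272 CPM (245 to 302), the cycling cluster at 271 CPM, non-classical monocyte-like cells at 151 CPM and migratory dendritic-like cells at 105 CPM. Microglia-like, neutrophil-like and NK-like cells stood at 12.8, 9.33 and 3.82 CPM with 4, 2 and 1 UMIs. In suffix 3 the levels were 478 CPM (434 to 526) in classical monocyte-like, 224 CPM in dendritic-like, 196 CPM in non-classical monocyte-like and 108 CPM in cycling cells. Neutrophil-like and NK-like cells there had 28.7 and 9.04 CPM. Classical monocyte-like cells were highest in both suffixes, with intervals clear of every other class. This class also held neutrophil markers, 13182 CPM against 5236 CPM of its own list in suffix 2 and 3568 against 7080 CPM in suffix 3, led by S100a8 and S100a9. Of its 206 cells, 73.8% kept the name at resolution 1.0, 75.2% with family genes kept in the clustering, 54.9% when cells were named by the list scaled to its maximum and 41.7% when named one by one. The part of this mixture in the Ms4a levels was not tested. After thinning, 55.8% (46.5 to 64.9) and 60% (48.0 to 71.1) of classical monocyte-like cells had a UMI, against 0 of 67 and 0 of 31 NK-like cells, which allows up to 4.48% and 9.68%.

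**Figure D3:**
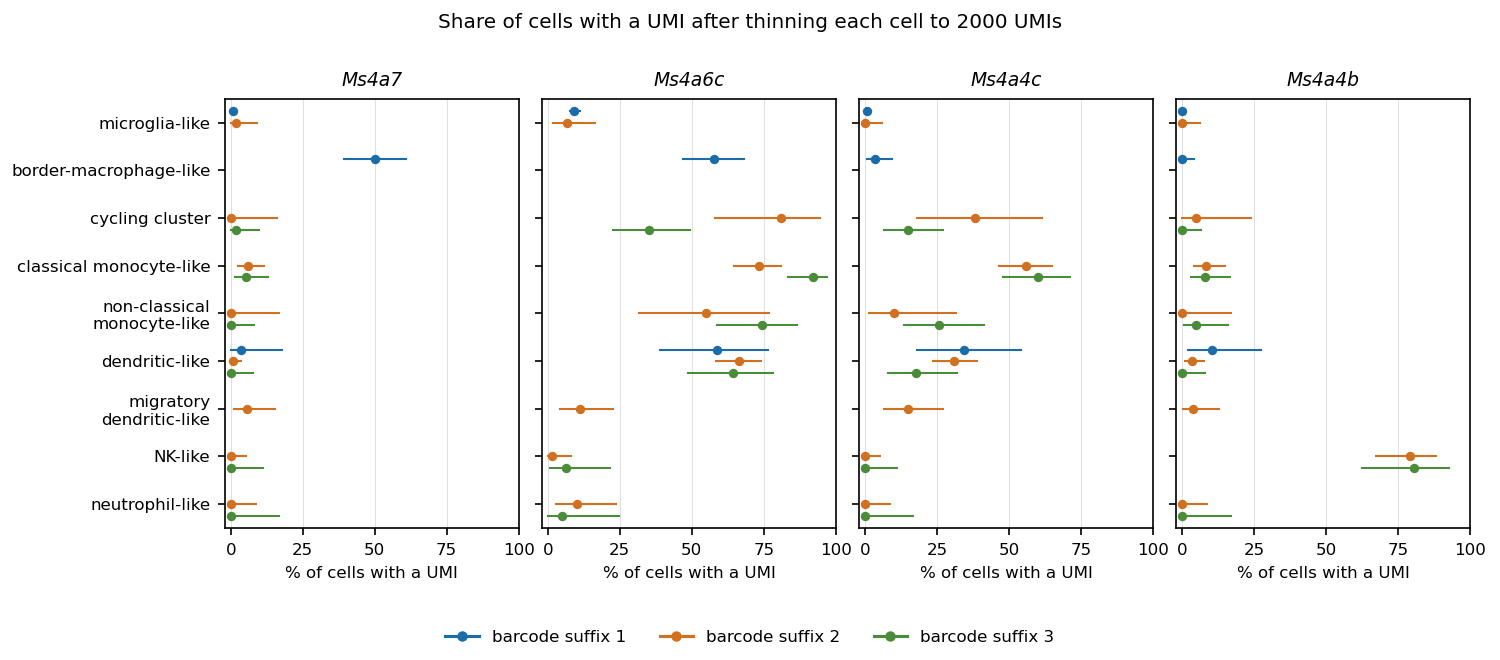
Share of cells (%) with at least 1 UMI of Ms4a7, Ms4a6c, Ms4a4c and Ms4a4b after thinning every cell to 2000 UMIs, by class and barcode suffix, with 95% Clopper-Pearson bars. For Ms4a7 border-macrophage-like cells stand at 50%, for Ms4a4b NK-like cells at 79.1% and 80.6%, and every other class shown for those 2 genes is at 10.3% or lower.

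Ratios within a suffix were taken for members with at least 50 UMIs in both classes together, and a ratio was counted when it was at least 2-fold. A member could pass through the class where it is high (Ms4a4c with 724 and 4 UMIs in classical monocyte-like and microglia-like cells of suffix 2), so the counts are descriptions and nothing is read from them. Between border-macrophage-like and microglia-like cells of suffix 1, 3 of 4 members were higher (Ms4a7, Ms4a6c, Ms4a6b) and 0 lower, where 3.69% of 7619 genes were higher and 3.45% lower. Ms4a6c had 2.62 (2.38 to 2.86), Ms4a6b 1.23 (1.01 to 1.46) and Ms4a6d 0.59 (0.35 to 0.82), which is under 2-fold. With cells named one by one Ms4a6b had 0.13 (-0.27 to 0.55), which ends its call. Between dendritic-like and microglia-like cells of suffix 1, Ms4a6c (3.17, 2.86 to 3.48) and Ms4a4c (5.94, 5.09 to 6.88) were higher, 2 of 4, and 0 were lower, where 7.09% of genes were higher and 36.6% lower. Ms4a6b and Ms4a6d had -0.20 (-0.82 to 0.37) and -0.59 (-1.22 to -0.03). The 29 dendritic-like cells held 4521 CPM of microglia markers (11 of 11) and 4290 CPM of dendritic markers, against 768 and 668 CPM of microglia markers in the dendritic-like cells of suffixes 2 and 3, and the part of this in the ratios was not tested.

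Classical monocyte-like cells were set against microglia-like cells in suffix 2 and against dendritic-like cells in suffixes 2 and 3, comparisons chosen once the numbers of cells were known. Against microglia-like cells, 3 of 4 members were higher and 0 lower, where 18% of genes were higher and 14.2% lower. Ms4a4c had a log2 ratio of 5.87 (4.50 to 7.75), Ms4a6c 3.47 (2.92 to 4.08), Ms4a6b 2.54 (1.89 to 3.26) and Ms4a6d 0.37 (-0.09 to 0.86). These ratios rested on which cells counted as microglia-like. When the input of the clustering was rounded to 3 decimals, a step added after the data had been seen, the cycling cells were named microglia-like too, the class in suffix 2 grew, and the ratios were 2.38 for Ms4a4c, 1.24 for Ms4a6c, 1.77 for Ms4a6b and 0.30 for Ms4a6d. The Ms4a6c level of microglia-like cells in suffix 2 was then 378 CPM in place of 86.3 CPM and that of Ms4a4c 132 CPM in place of 12.8 CPM. The classical monocyte-like cells also held dendritic markers, 2596 CPM in suffix 2 and 1050 CPM in suffix 3. Dendritic-like cells held 4662 and 4562 CPM of them, and the part of this overlap in the ratios was not tested. Against dendritic-like cells of suffix 2, 3 of 4 were higher and 0 lower (Ms4a6b 1.76, Ms4a4c 1.45, Ms4a6d 1.07), where 7.46% and 1.85% of genes were, and Ms4a6c had 0.68 (0.54 to 0.82). Ms4a4c fell under 2-fold with doublets kept (0.77, 0.54 to 0.99). Ms4a6d did so in 6 settings: 0.40 with cells named one by one, 0.94 with the scaled list, 1.00 with rounded input, 0.57 with doublets kept, 0.92 at 1000 genes per cell and 0.54 at 5% mitochondrial UMIs. Ms4a6c passed it in 6, with its highest value, 1.30, at resolution 1.0. In suffix 3, 3 of 5 were higher (Ms4a7 4.28, Ms4a6b 2.16, Ms4a4c 1.09) and 0 lower, where 11.9% and 4.02% of genes were. There Ms4a6c had 0.91 (0.71 to 1.12) and Ms4a6d 0.11 (-0.29 to 0.52). Ms4a4c fell under 2-fold with doublets kept (0.85), at 5% mitochondrial UMIs (0.91), with family genes kept (0.96) and with the scaled list (0.84), and Ms4a6b at 5% mitochondrial UMIs (0.94). Ms4a6c passed it in 3 settings, with 1.11 as the highest, when cells were named one by one. For Ms4a7 the suffix 3 ratio turned to -2.46 when 7 called doublets were kept, and the clusters also differed in that setting.

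**Figure D4:**
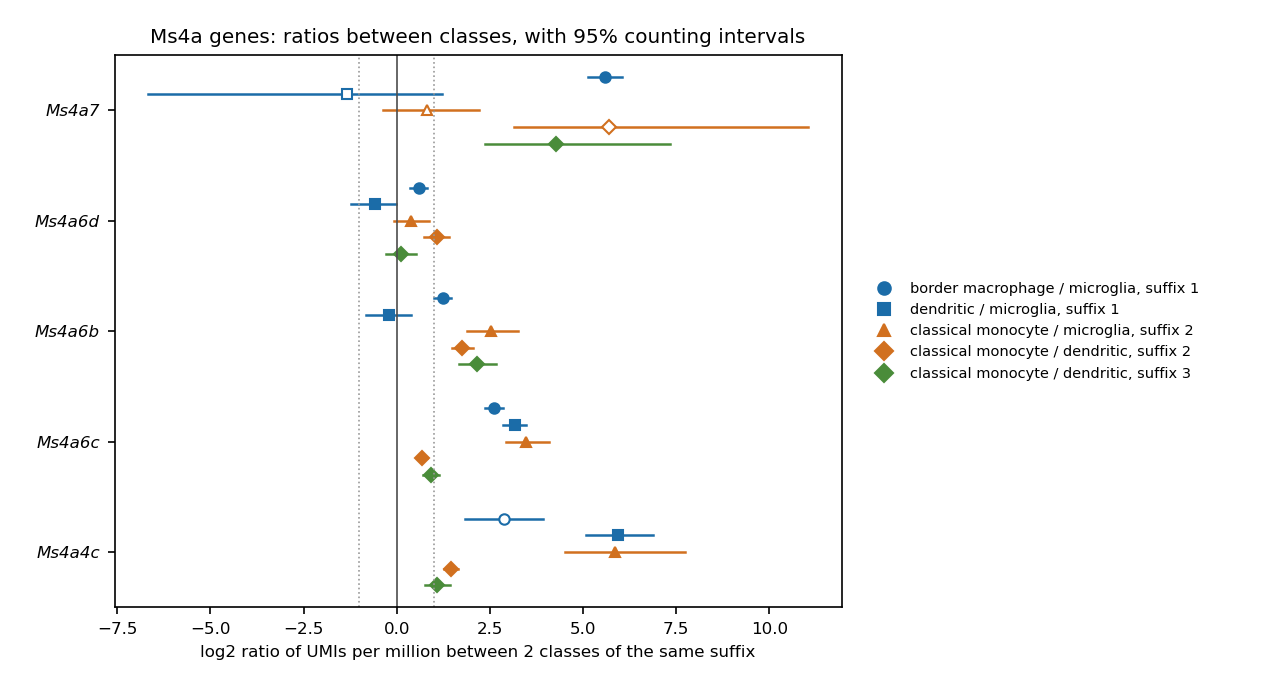
Log2 ratios of CPM between 2 classes of the same suffix for 5 Ms4a genes, with exact 95% counting intervals; filled symbols rest on at least 50 UMIs in both classes together, open symbols on fewer, and dotted lines mark 2-fold. Ms4a6d lies within 2-fold in 4 of 5 comparisons, while Ms4a7 reaches 5.58 between border-macrophage-like and microglia-like cells.

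Within the microglia-like cells of suffix 1, the CPM of some members differed by cluster. The 510 cells of a cluster led by P2ry13 and P2ry12 had Ms4a6d at 172 CPM (153 to 193) and Ms4a6b at 125 CPM (109 to 144). The 177 cells of a cluster led by the cytokine and activation genes Il1a, Cd83 and Tnf had 98.3 CPM (81.6 to 117) and 83.8 CPM (68.5 to 102). A cluster of 400 cells led by Slc2a5 and Tmem119 lay between, at 149 and 112 CPM. Ms4a6c did not follow, with 52.3, 55.2 and 56.4 CPM in the P2ry13-led, Slc2a5-led and Il1a-led clusters. Ms4a7 had 1.22 CPM, 7.82 CPM (11 of 16 UMIs in 1 cell) and 22.6 CPM (20 of 28 UMIs in 1 cell). In suffix 2 the Ms4a6d order was the opposite with overlapping intervals, 120 CPM (65.4 to 201) in 36 P2ry13-led and 183 CPM (125 to 258) in 24 Il1a-led cells. Ms4a6c there had 25.6 CPM (5.29 to 74.9) and 137 CPM (87.8 to 204). Over all suffixes, median depth was 2854, 4263 and 6022 UMIs per cell in the P2ry13-led, Slc2a5-led and Il1a-led clusters. Without thinning, 204 of 510, 193 of 400 and 78 of 177 of their suffix 1 cells had a Ms4a6d UMI. For Ms4a6b, 160, 162 and 74 of these cells did. The CPM of both genes thus fell as depth rose, and the part of depth was not tested.

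Members were also counted together in single thinned cells, over Ms4a6b, Ms4a6c, Ms4a6d and Ms4a4c. At least 2 of the 4 were found in 65% (55.8 to 73.5) and 84% (73.7 to 91.4) of classical monocyte-like cells of suffixes 2 and 3, and in 48.9% (38.2 to 59.7) of border-macrophage-like cells of suffix 1. Dendritic-like cells had 34.5%, 44.1% and 35.6% in suffixes 1, 2 and 3. Microglia-like cells had 9.42% (7.70 to 11.4) in suffix 1 and 11.9% (4.91 to 22.9) in suffix 2, and 53.9% and 67.8% of them had none of the 4. In NK-like cells it was 1.49% and 0%, and in neutrophil-like cells 0% in both suffixes.

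Ms4a4b was highest in the NK-like cells of this sort. Its level was 1166 CPM (1039 to 1304, 305 UMIs) in 79 NK-like cells of suffix 2 and 1212 CPM (1015 to 1435, 134 UMIs) in 33 of suffix 3, and 1133 CPM (851 to 1479, 54 UMIs) in the 13 of suffix 1. The 3 values overlapped, and 82.7% of its 596 UMIs came from NK-like cells, 5.85% of all cells. In suffixes 2 and 3 NK-like cells held 34707 and 34763 CPM of NK markers and 535 and 199 CPM of T cell markers. Of 11 T cell markers listed, 9 were in the matrix. Of the 125 NK-like cells, 80% kept the name with the list scaled to its maximum and 61.6% when named one by one. The part of T cells in the Ms4a4b level was not tested. After thinning, 79.1% (67.4 to 88.1) and 80.6% (62.5 to 92.6) of NK-like cells in suffixes 2 and 3 had a UMI. Microglia-like cells had 0 UMIs in suffixes 1 and 2, which allows up to 0.608 and 9.59 CPM and, after thinning, up to 0.294% and 5.08% of cells, at median depths of 3393 and 3761 UMIs against 3092 UMIs in the NK-like cells of suffix 2. Classical monocyte-like cells had a low level, 24.7 CPM (15.8 to 36.7) and 36.0 CPM (24.6 to 50.8) in suffixes 2 and 3, in 8.33% (4.07 to 14.8) and 8% (2.99 to 16.6) of thinned cells. Neutrophil-like cells had 0 UMIs in both suffixes, and the cycling cluster, both kinds of dendritic-like cells and non-classical monocyte-like cells had at most 29.7 CPM where a suffix held at least 20 cells.

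At a finer clustering, chosen as an alternative setting, the NK-like cells split in 2. A cluster led by the granzyme gene Gzma, the protease gene Cma1 and the receptor gene Klra4 had Ms4a4b at 1521 CPM (1040 to 2147) in 6 cells of suffix 1, 1768 CPM (1494 to 2076) in 31 of suffix 2 and 1982 CPM (1480 to 2600) in 9 of suffix 3. A cluster led by Gzmc, Xcl1 and Cxcr6 had 827 CPM (518 to 1252) in 7 cells, 883 CPM (750 to 1032) in 48 and 972 CPM (773 to 1206) in 24. The first was higher in each suffix, with intervals apart in suffixes 2 and 3. Median depth in suffix 2 was 2303 UMIs in the first and 3464 UMIs in the second. Tnfrsf18, which encodes GITR, a costimulatory receptor known to associate with the Ms4a4b protein, was also highest in NK-like cells, at 279 CPM (219 to 351) in suffix 2 and 335 CPM (236 to 461) in suffix 3, with 73 and 37 UMIs.

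Ms4a2 marked basophil-or-mast-cell-like cells. This class had 7 cells, led by Prss34, Mcpt8 and Fcer1a, and held 21 of 26 Ms4a2 UMIs (80.8%), in 6 of the 7 cells. The level was 619 CPM (128 to 1809) in 1 cell of suffix 1, 855 CPM (467 to 1434) in 4 cells of suffix 2 and 653 CPM (178 to 1673) in 2 cells of suffix 3. Of the remaining 5 UMIs, 3 were in 1 cell of the cycling cluster. Microglia-like cells of suffix 1 had 0 UMIs, which allows up to 0.608 CPM. Fcer1a, the chain of the receptor that binds IgE, had 4746, 3907 and 1797 CPM in the same cells of suffixes 1, 2 and 3. Fcer1a is in the marker list that named this class, so its high level there follows from the naming. Fcer1g, the signalling chain of the receptor, was shared by all classes, and was highest in non-classical monocyte-like cells at 6535 CPM in suffix 2.

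Other genes of the family were sparse. Of Ms4a1, Ms4a3, Ms4a4d, Ms4a5, Ms4a8a, Ms4a10, Ms4a13, Ms4a14, Ms4a15 and Ms4a18, 5 had 0 UMIs and 4 had 2 to 37. Ms4a8a had 79 UMIs, with 24.7 CPM (15.8 to 36.7) and 34.9 CPM (23.7 to 49.5) in classical monocyte-like cells of suffixes 2 and 3 and 0 UMIs in microglia-like cells of suffix 1. The related Tmem176b and Tmem176a, membrane proteins related to the Ms4a family, were abundant in more classes. Tmem176b had 680 CPM (658 to 704) in microglia-like and 919 CPM (858 to 984) in border-macrophage-like cells of suffix 1, log2 0.43 (0.32 to 0.54). Migratory dendritic-like cells had the highest values of suffix 2, with 790 CPM (707 to 880) of Tmem176b and 730 CPM (651 to 817) of Tmem176a, where Ms4a6c, Ms4a6b and Ms4a6d were low. In classical monocyte-like cells of suffixes 2 and 3, Tmem176b stood at 527 and 227 CPM and Tmem176a at 409 and 126 CPM. This class held 13182 and 3568 CPM of neutrophil and 2596 and 1050 CPM of dendritic markers in those suffixes. The part of this in the Tmem176 levels was not tested.

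Patterns were compared over the 17 combinations of class and suffix with at least 20 cells, as Pearson correlations of log2(CPM + 10), given as a description since the combinations share libraries and depth. Among members, Ms4a6c and Ms4a4c were most alike (r = 0.91, n = 17), and their promoter windows share a local alignment of 15 columns. Ms4a6c and Ms4a6b, whose windows align over 182 columns, had r = 0.59, and Ms4a4c and Ms4a4b, aligned over 128 columns, had r = -0.20. A link between promoter sequence and these patterns was not tested. Ms4a7 was nearest to Ms4a6b (r = 0.55) and Ms4a6d (r = 0.51). Among 7997 other genes with at least 100 UMIs, Ms4a7 was most like Igfbp2 (r = 0.87), Ccl24 (0.83) and Gpx3 (0.82). Of these Ccl24, a chemokine, had 273 CPM in border-macrophage-like and 11.2 CPM in microglia-like cells of suffix 1, while Igfbp2 had only 8.87 CPM in border-macrophage-like cells. Ms4a6c was most like Anxa5 (0.91), Ccdc109b (0.90) and Rnase6 (0.89), and Ms4a4c most like Ccdc109b (0.95), Sh3bgrl (0.90) and Ass1 (0.90). Ms4a6b was most like Spg21 (0.81), Xaf1 (0.80) and F13a1 (0.78), the last a coagulation factor gene with 314 CPM in border-macrophage-like cells of suffix 1, 187 CPM in classical monocyte-like cells of suffix 3 and 0 CPM in NK-like cells of both suffixes. Ms4a6d was most like Tnfrsf13b (0.94), Nrros (0.93) and Fcgrt (0.92). Ms4a4b was most like the NK and T cell genes Gzma (0.95), Thy1 (0.94) and Cxcr6 (0.94). Gzma is in the NK list and F13a1 in the classical monocyte list, so both were used to name classes. The names of the most alike genes depended on the measure: with Spearman correlation of CPM at most 1 of the 3 names was kept for each of the 6 members.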

How the data were processed

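Cd11b-sorted brain cells were profiled by droplet single-cell RNA sequencing (10x 3′ v2), and Cell Ranger 2.0.1 and the build mm10 are named per the submitters' processing notes. The authors deposited 1 matrix of raw UMI counts (genes by barcodes) that pools all samples; no further filter is given in the sources used here. From these counts, cells with at least 500 genes and at most 10% mitochondrial UMIs were kept (2144 of 2149). Scrublet, run per suffix with an expected rate of 5%, marked 7 cells (0.326%), which were removed; so low a yield leaves doublets essentially untreated, and whether the authors removed any is not given in the sources used here.

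Counts were log-normalised and clustered with scanpy 1.11.5 (2000 variable genes, 30 components, 15 neighbours, Leiden resolution 0.5, igraph 0.11.9) under Python 3.11.15, numpy 2.4.6 and scipy 1.17.1, on a single thread. A cluster was named when at least 3 markers of a list were detected and its leading genes did not point to another list. Levels were summed per class and suffix, so a level cannot tell fewer expressing cells from less RNA per cell; the shares of cells bear on that. Thinning drew 2000 UMIs per cell and left out shallower cells, 68 of 1087 microglia-like cells of suffix 1 among them. The scripts were tested on simulated data. Named were the 8 members, their partners, the other genes of the family and, for each member with at least 100 UMIs, the 3 genes most like it. Members, lists and comparisons were chosen with earlier results of these data known.

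A comparison of border-macrophage-like with monocyte-like or dendritic-like cells in suffixes 2 and 3 had been planned and could not be made, since those suffixes held under 20 such cells. The classical monocyte comparisons took its place. Clec7a and several lymphocyte genes were not analysed here.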

Additional observations from a re-analysis of the deposited data

Results flagged for a closer look

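Ms4a6c was found outside the classes compared, in 2 unnamed clusters of non-immune leading genes. A cluster of 12 cells led by Ly6c1, Itm2a and Flt1, genes of blood vessel cells, held 8 Ms4a6c UMIs, all in 1 cell (201 CPM, 86.6 to 395). A cluster of 12 cells led by Ttr, a gene of choroid plexus epithelium, held 5 UMIs in 2 cells (53.1 CPM, 17.2 to 124). They are listed because both counts are above 3, the limit used for a count of 0. With all 8 UMIs in 1 cell and 5 in 2 cells, nothing is read from them about the other cells of either cluster. The part of mixed cells or free RNA was not tested.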

How the results depend on the processing

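Over all settings, 161 of 211 alternative ratios stayed within the interval of the reported one, 49 moved and 1 turned; of levels, 1170 of 1424 stayed, and of shares, 628 of 816. Values are log2 ratios unless given in CPM, and the causes were not tested. With each cell named alone by its largest marker list, which kept 9.97% of the microglia-like cells, Ms4a6c between border-macrophage-like and microglia-like cells (2.62) became 1.04, Ms4a6d (0.59) 0.14, Ms4a4c between classical monocyte-like and dendritic-like cells of suffix 2 (1.45) 1.08, and Ms4a4b in NK-like cells of suffix 2 (1166 CPM) 758 CPM. With the list scaled to its maximum, added after seeing the data, Ms4a7 (5.58) became 4.01, Ms4a6d 0.87 and Ms4a4b 708 CPM. With at least 1000 genes per cell Ms4a7 was 3.94, Ms4a6c 2.24 and Ms4a4c 1.78. As a mean of per-cell CPM, Ms4a7 was 7.18, Ms4a6c 2.88 and Ms4a4b 1347 CPM. Without mitochondrial and ribosomal UMIs, Ms4a4b was 1616 and 1654 CPM in suffixes 2 and 3. Ms4a7 was 6.92 without microglia-like cells holding border macrophage markers and 6.34 without the top cell. Ms4a4c in suffix 2 was 1.93 at resolution 1.0, 1.93 with family genes kept, 0.77 with doublets kept and 1.06 at 5% mitochondrial UMIs. Ms4a6c between classical monocyte-like and microglia-like cells of suffix 2 (3.47) was 2.05 with family genes kept, 4.23 at 5% mitochondrial UMIs and 1.24 with rounded clustering input. Ms4a7 between classical monocyte-like and dendritic-like cells of suffix 3 (4.28) turned to -2.46 with doublets kept. The borders between monocyte-like, dendritic-like, neutrophil-like and cycling cells shifted with small numerical differences, and at 5% mitochondrial UMIs the clusters even differed with the number of computing threads; the suffix 1 ratios moved little under rounding. No paired analysis was possible because suffixes are not tied to samples and no test between groups was made.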
